A study of Mus musculus with 6 samples.

Results

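The genes described here encode the cell's general protein-folding machinery: the heat shock proteins of the HSP70, HSP110, HSP90, HSP60, HSP10 and small HSP families, the J proteins (Dnaja, Dnajb and Dnajc genes), and the 8 subunits of the cytosolic chaperonin TRiC. Members were chosen by symbol alone, with no measured value in the rule. It took 82 of the 23420 gene symbols in the expression tables, and 69 of them were among the 11844 genes with at least 0.5 CPM (a gene's read count scaled to a common library total, deposited on the log2 scale) in at least 3 of the 6 libraries. Counts and medians below refer to those 69 genes. Just inside the limit were Hspb1 (0.11 to 0.698 CPM over the 6 libraries) and Hspa12b, which reached 0.5 CPM only in CL097 libraries. The 13 others (Dnajb3, just outside at 0.226 to 0.541 CPM, Dnajb7, Dnajb8, Dnajc5b, Dnajc5g, Dnajc6, Dnajc22, Hspa12a, Hspb2, Hspb3, Hspb7, Hspb8 and Hspb9) reached it in fewer than 3 libraries.

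Messenger RNA was sequenced from bead-purified splenic B cells of TLR9-/- MRL/lpr mice, a lupus-prone strain that carries the lpr mutation of Fas. Both groups shared that genotype, and both kept wild-type TLR7. The methods describe male mice and B cells enriched by removing other lineages on beads rather than by positive selection. Mice were 5 to 7 weeks old, and cells were cultured for 4 h, either unstimulated (3 libraries) or with the imidazoquinoline CL097, a synthetic TLR7 agonist, at 5 µg/ml (3 libraries). The question here is which folding genes differed between stimulated and unstimulated cells. The labels give 3 mice and number the libraries of each group 1 to 3, without stating that equal numbers mark the same mouse.

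Chaperones work in relays. J proteins deliver unfolded clients to HSP70 and trigger its ATPase, HSP110 proteins reset HSP70 by exchanging its nucleotide, and HSP90 takes over many kinases and receptors for late folding steps. The chaperonins are closed barrels: TRiC folds actin, tubulin and many proteins with WD40 repeats in the cytosol, and HSP60 with its lid HSP10 does so in the mitochondrial matrix. The endoplasmic reticulum (ER) has its own set, led by BiP (Hspa5), which holds immunoglobulin heavy chains until they pair, and GRP94 (Hsp90b1), which Toll-like receptors need to fold. Heat shock factor 1 binds heat shock elements, which are inverted repeats of the pentamer nGAAn, and the unfolded protein response acts on ER chaperone genes through ER stress elements.

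Markers of B cells and of other cells differed between libraries, and those numbered 1 stood apart. Summed CPM of 6 B cell markers was 5812 to 6671 in unstimulated and 2339 to 2838 in CL097 libraries, with 4 of the 6 called lower. T cell and NK cell marker sums stayed at or below 4.32 CPM, and 1 of 2 T cell markers kept was called higher. Both libraries numbered 1 had low sums of erythroid markers (16.6 and 22.8 CPM, against 466 to 693 in the 4 others), which went from 16.6 to 22.8, 466 to 486 and 533 to 693 CPM in pairs 1, 2 and 3, with 1 of 2 markers kept called higher. They also had the lowest sums of monocyte and macrophage markers within their group (85.5 against 246 and 336 CPM unstimulated; 49.8 against 109 and 151 CPM with CL097). Of 4 monocyte and macrophage markers kept, 3 were called lower with CL097, as were 3 of 4 neutrophil markers, whose sums were 23.3 to 55.8 CPM unstimulated and 12.2 to 37.2 CPM with CL097. Plasma cell marker sums were 192 to 234 CPM unstimulated and 103 to 119 CPM with CL097, with 2 of 3 called lower. The part of these cells in the results below was not tested. In such bulk libraries, fewer cells of a type and less RNA per cell cannot be told apart. Without the 2 libraries numbered 1, 36 members were called higher and 9 lower, against 34 and 9 with them. That fit left out the libraries with the lowest erythroid sums and, within each group, the lowest monocyte and macrophage sums. It does not test the part of those cells.

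Promoter sequence, a feature the rule did not use, was searched for short motifs in all members together and in all genes tested. In RefSeq windows from 250 bases before to 50 bases after each transcription start (GRCm38.p6), 57 of the 69 members and 8861 of the genes tested had at least 1 window. Members without a window, among them Hspa8, Hsp90aa1, Hsp90ab1 and Hspa9, were not searched. Both strands were searched. A heat shock element of 3 alternating units (GAANNTTCNNGAA or TTCNNGAANNTTC) was in the windows of 4 members (7.0%: Hspd1, Hspe1, Hsph1 and Dnajb6) and of 53 genes in all (0.6%). The shorter 2-unit form GAANNTTC was in 12 members (21.1%, against 7.2% of genes tested), and the inverse form TTCNNGAA in 8 (14%, against 8.4%). The E-box CACGTG was found in 12.3% of members and 12.2% of genes tested, and CCAAT in 45.6% and 43.3%. An ER stress element (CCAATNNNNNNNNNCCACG, which contains the CCAAT letters) was in 3 members (5.3%: Hspa5, Hsp90b1 and Dnajc3) and in 15 genes in all (0.2%). A match describes the letters only, not a bound site. Heat shock elements are shown for the 4 members with the 3-unit form and for Hspa1a and Hspa1b, which carry the 2-unit form in near-identical promoters. ER stress elements are shown for the 3 members that hold one, because their log2 fold changes differed in sign. Capitals mark the element. For Hspe1 and Hspd1 they cover overlapping 3-unit matches in a single stretch, which counts for both members. Sequences run 5′ to 3′ on the strand of the gene, which for the shared stretch is that of Hspe1.
Hspe1 and Hspd1, chr1:55088053-55088082, + strand: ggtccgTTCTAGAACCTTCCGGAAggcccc
Hsph1, chr5:149636282-149636306, - strand: tgcagaTTCTGGAAAGTTCtcctca
Dnajb6, chr5:29735844-29735872, + strand: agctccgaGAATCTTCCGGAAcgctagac
Hspa1a, chr17:34972223-34972290, - strand: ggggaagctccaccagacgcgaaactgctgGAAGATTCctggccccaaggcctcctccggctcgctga
Hspa1b, chr17:34959305-34959372, - strand: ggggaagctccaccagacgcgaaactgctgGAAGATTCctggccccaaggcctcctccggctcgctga
The ER stress elements follow in the same form.
Hspa5, chr2:34772020-34772048, + strand: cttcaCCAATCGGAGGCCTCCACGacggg
Hsp90b1, chr10:86705513-86705676, - strand: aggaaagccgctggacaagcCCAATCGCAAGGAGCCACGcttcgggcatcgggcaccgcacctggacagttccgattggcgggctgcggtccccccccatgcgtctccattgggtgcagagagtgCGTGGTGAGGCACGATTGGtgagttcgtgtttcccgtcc
Dnajc3, chr14:118937807-118937865, + strand: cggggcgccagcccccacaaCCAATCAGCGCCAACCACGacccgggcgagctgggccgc

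The element shared by Hspd1 and Hspe1 begins 89 bases before the RefSeq start of Hspe1. Read on the other strand, it begins 144 bases before a start of Hspd1. The window of another RefSeq start of Hspd1 held no heat shock element of the forms searched. The Hsph1 element is not upstream: it begins 15 bases after a RefSeq start of that gene and 36 bases after another. The printed stretches of Hsph1, Dnajb6 and Hspa5 overlap annotated exons of the same genes, and that of Hspe1 an exon of Hspd1. Hsp90b1 has its pair of ER stress elements on opposite strands, 212 and 107 bases before the start. The Hspa1a and Hspa1b stretches were identical at 68 of 68 bases, and their whole windows at 296 of 300.

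Members as a whole took a larger share of the libraries after stimulation. They summed to 1.45%, 1.35% and 1.42% of all CPM in unstimulated libraries 1, 2 and 3, and to 2.40%, 2.27% and 2.21% in CL097 libraries 1, 2 and 3. The groups did not overlap. By family, TRiC went from 0.279% to 0.325% of CPM unstimulated to 0.566% to 0.629% with CL097, HSP90 from 0.427% to 0.472% to 0.697% to 0.763%, and HSP70 with HSP110 from 0.324% to 0.342% to 0.511% to 0.564%. J class C proteins, the family with the most genes, stood at 0.186% to 0.187% unstimulated and 0.196% to 0.203% with CL097. The net gain in mean level was 8796 CPM, of which Hsp90ab1 made up 26.7%, Hspa8 9.7%, Hsp90aa1 8.9%, Hspd1 6.2% and Cct3 5.3%.

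**Figure D1:**
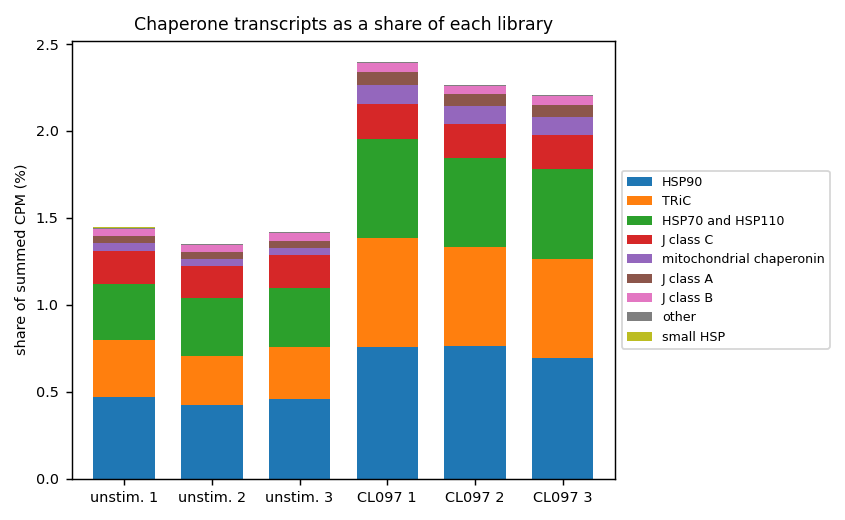
Stacked bars give the share of summed CPM (%) taken by each chaperone family in each of the 6 libraries, from 0. The 3 CL097 bars reach 2.21% to 2.40% and the 3 unstimulated bars 1.35% to 1.45%, and the HSP90, TRiC and HSP70 bands account for most of the difference.

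Per gene, CL097 was compared with unstimulated cells by a limma fit on the deposited log2 CPM with the library number as a block. Calls required an adjusted p under 0.05 (Benjamini-Hochberg, over every gene tested) together with an absolute log2 fold change over 0.5, which is 1.41-fold. Of 69 members, 34 were called higher (49.3%), where 25.9% of all genes tested were, and 9 lower (13.0%), where 25.8% of all genes were. The other 26 were not called. The median log2 fold change was 0.59 over members and 0.00 over all genes tested (0.002). The 2 groups of libraries did not overlap, with CL097 higher, for 39 members (33.4% of all genes), and with CL097 lower for 12 (32.4% of all genes). Calls over 2-fold higher were made for 13 members, and for 13.9% of all genes.

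**Figure D2:**
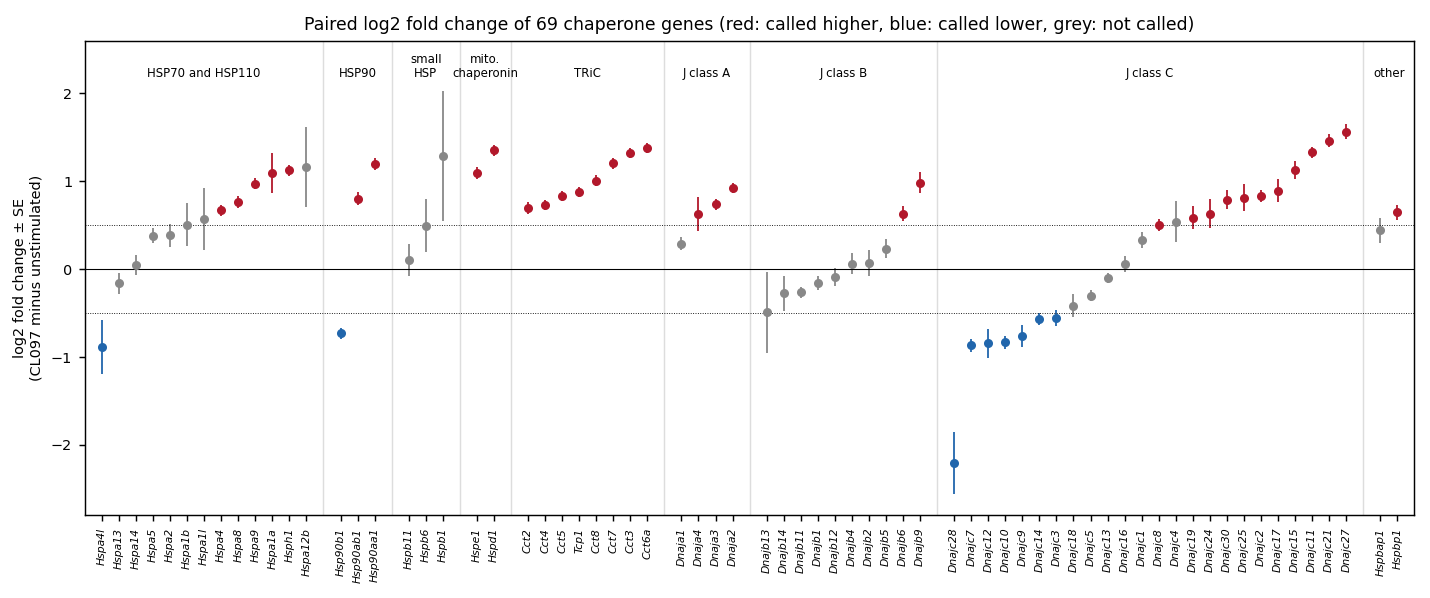
Points are log2 fold changes (CL097 minus unstimulated, paired limma fit, n = 3 pairs) with their SE for the 69 members, ordered within family, and dotted lines mark the fold threshold of 0.5. All 8 TRiC subunits lie between 0.70 and 1.38, whereas J class C genes run from -2.21 (Dnajc28) to 1.57 (Dnajc27).

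The 3 HSP90 genes split by compartment. Hsp90aa1, the stress-responsive cytosolic form on chr12:110690605-110702728, measured 600, 561 and 661 CPM in unstimulated libraries 1, 2 and 3 and 1479, 1350 and 1349 CPM in CL097 libraries 1, 2 and 3. Every CL097 library was above every unstimulated one, a difference of 1.20 ± 0.07 on the log2 scale (SE from the fit, adjusted p = 7.68e-06 by limma). Hsp90ab1, the constitutive cytosolic form on chr17:45567775-45573271, measured 3423, 2931 and 3167 CPM unstimulated and 5584, 5805 and 5174 CPM with CL097. It was also higher in every CL097 library, by 0.80 ± 0.07 on the log2 scale (adjusted p = 7.29e-05 by limma). Per kilobase of exon, Hsp90ab1 was the most abundant member in both groups, with a mean level of 1058 CPM per kb unstimulated and 1841 CPM per kb with CL097, against 154 and 354 CPM per kb for Hsp90aa1. Hsp90b1, which encodes the ER form GRP94, on chr10:86690209-86705509, went the other way. It measured 678, 740 and 746 CPM unstimulated and 448, 434 and 419 CPM with CL097, so that all CL097 libraries were lower (log2 fold change -0.73 ± 0.07, adjusted p = 5.99e-05 by limma). For Hsp90aa1, 53.1% of the 75-base stretches of its longest transcript also occur in other annotated genes such as Gm12346. How such reads were assigned is not given in the sources used here.

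Among HSP70 and HSP110 genes, 5 of 13 were called higher (38.5%, against 25.9% of all genes) and 1 lower (7.7%, against 25.8%). The median log2 fold change was 0.57, and 0.28 without the libraries numbered 1. Hspa8, the constitutive cytosolic HSP70 HSC70 on chr9:40800984-40810087, measured 1190, 1252 and 1241 CPM unstimulated and 2254, 2016 and 1982 CPM with CL097. All CL097 libraries were above all unstimulated ones (log2 fold change 0.76 ± 0.07, adjusted p = 5.99e-05 by limma). Of its 75-base stretches, 40.9% are shared with other annotated genes. Hspa9, which encodes the mitochondrial HSP70 mortalin, measured 477, 403 and 449 CPM unstimulated and 897, 839 and 872 CPM with CL097, a log2 fold change of 0.98 ± 0.06 (adjusted p = 8.66e-06 by limma). Its groups were likewise separate. The HSP110 exchange factors that recycle cytosolic HSP70 diverged. Hsph1 measured 111, 107 and 104 CPM unstimulated and 228, 233 and 238 CPM with CL097. That separation corresponds to a log2 fold change of 1.12 ± 0.07 (adjusted p = 7.43e-06 by limma). Hspa4 measured 499, 494 and 496 CPM unstimulated and 853, 746 and 773 CPM with CL097, higher in every CL097 library and by 0.67 ± 0.06 on the log2 scale. Hspa4l, another HSP110 gene, measured 20.4, 20.4 and 17.6 CPM unstimulated and 5.51, 12.9 and 16.3 CPM with CL097. It was lower in each pair, most in the pair numbered 1, and its call (log2 fold change -0.89 ± 0.30, adjusted p = 0.0353 by limma) rested on that pair: without it the log2 fold change was -0.39.

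Hspa5, which encodes BiP, did not move with Hsp90b1. The gene, on chr2:34771970-34777547, measured 794, 881 and 974 CPM unstimulated and 1211, 1104 and 1125 CPM with CL097. The CL097 libraries were all higher, with an adjusted p of 0.00509 by limma, but the log2 fold change of 0.38 ± 0.08 was under the fold threshold and the gene was not called. Within libraries, the CPM of Hspa5 divided by that of Hsp90b1 was 1.17, 1.19 and 1.31 unstimulated and 2.70, 2.54 and 2.69 with CL097. Every CL097 ratio was above every unstimulated one. A difference in gene length affects the ratio itself but is the same in both groups, and the difference between the 2 genes was not tested. Both promoters hold the ER stress element printed above.

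The classical heat-inducible HSP70 genes were near the low end of the measured range. Hspa1a, on chr17:34969190-34972156, measured 2.41, 3.98 and 3.09 CPM unstimulated and 4.95, 6.30 and 9.18 CPM with CL097. Its lowest CL097 value was above its highest unstimulated value, and it was called higher (log2 fold change 1.09 ± 0.23, adjusted p = 0.00431 by limma). Hspa1b, its near-identical neighbour on chr17:34956436-34959238, measured 1.99, 5.97 and 5.02 CPM unstimulated and 4.36, 6.92 and 5.66 CPM with CL097. The groups overlapped and the gene was not called (log2 fold change 0.50 ± 0.24, 95% interval -0.07 to 1.08, adjusted p = 0.105 by limma). Because 54.2% of Hspa1a and 55.8% of Hspa1b 75-base stretches are shared, mainly with each other, the division of reads between these genes is uncertain. Per kilobase, Hspa1a stood at a mean of 1.06 CPM per kb unstimulated and 2.29 CPM per kb with CL097, against 286 and 484 CPM per kb for Hspa8. Hspa1l, the other gene of this cluster, measured 0.70 to 1.33 CPM unstimulated and 1.28 to 1.66 CPM with CL097 and was not called. Of its exon length, 71.9% overlaps the annotated gene Gm10501 on the opposite strand.

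The remaining HSP70 genes were not called. Hspa2, a form best known from testis, measured 12.1 to 13.3 CPM unstimulated and 15.9 to 18.3 CPM with CL097, a separation of 0.38 ± 0.13 on the log2 scale that stayed under the fold threshold (adjusted p = 0.0318 by limma). Hspa14, which pairs with Dnajc2 on ribosomes, measured 65.3 to 76.8 CPM unstimulated and 68.1 to 84.5 CPM with CL097. Its groups overlapped (log2 fold change 0.05, 95% interval -0.21 to 0.32). Hspa13, an HSP70 relative of the ER, measured 34.0 to 46.7 and 30.2 to 42.8 CPM, respectively, again with overlap (log2 fold change -0.16, 95% interval -0.45 to 0.12). Hspa12b, at 0.410 to 0.491 CPM unstimulated and 0.543 to 1.72 CPM with CL097, lay just inside the low-value limit and had an adjusted p of 0.0573 by limma.

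Both subunits of the mitochondrial chaperonin rose. Hspd1, which encodes the HSP60 barrel, on chr1:55077835-55088243, measured 394, 317 and 349 CPM unstimulated and 950, 871 and 879 CPM with CL097. Hspe1, which encodes the HSP10 lid and lies head to head with Hspd1 on chr1:55088132-55091307, measured 76.2, 70.5 and 61.7 CPM unstimulated and 155, 147 and 142 CPM with CL097. For both genes every CL097 library was above every unstimulated one. The log2 fold change was 1.35 ± 0.06 for Hspd1 (adjusted p = 2.86e-06 by limma) and 1.10 ± 0.07 for Hspe1 (adjusted p = 1.24e-05 by limma). The annotated spans of the genes share 112 bases, and the element printed above lies just before the span of Hspe1, inside that of Hspd1. Of the 75-base stretches of Hspd1, 33.7% are shared with other annotated genes such as Hspd1-ps3.

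Every subunit of TRiC was called higher. The 8 genes lie on 8 chromosomes, and for all 8 the CL097 libraries were above the unstimulated ones. The median log2 fold change was 0.94 and the range 0.70 to 1.38. Cct6a, on chr5:129786998-129846371, measured 235, 197 and 205 CPM unstimulated and 636, 504 and 528 CPM with CL097, the largest difference in the complex at 1.38 ± 0.06 on the log2 scale (adjusted p = 2.08e-06 by limma). Cct3, on chr3:88297116-88321767, measured 336, 296 and 306 CPM unstimulated and 837, 754 and 754 CPM with CL097, a log2 fold change of 1.32 ± 0.05. Cct7, on chr6:85451514-85468475, measured 315, 249 and 254 CPM unstimulated and 688, 588 and 600 CPM with CL097, a log2 fold change of 1.20 ± 0.06. These were the 3 subunits with the largest differences, and each was over 2-fold higher with CL097.

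The other TRiC subunits differed by less. Cct8, on chr16:87483326-87495873, measured 374, 323 and 365 CPM unstimulated and 744, 694 and 696 CPM with CL097, a log2 fold change of 1.01 ± 0.06. Tcp1, on chr17:12915701-12925067, measured 447, 386 and 407 CPM unstimulated and 815, 729 and 736 CPM with CL097, a log2 fold change of 0.88 ± 0.05. Cct5, on chr15:31590800-31601804, measured 512, 437 and 472 CPM unstimulated and 890, 823 and 815 CPM with CL097, a log2 fold change of 0.83 ± 0.06. In all of these the groups were clearly separate. Cct4, on chr11:22990519-23003780, measured 371, 310 and 345 CPM unstimulated and 599, 542 and 559 CPM with CL097, a log2 fold change of 0.73 ± 0.06. Cct2, on chr10:117051001-117063814, measured 651, 566 and 637 CPM unstimulated and 1027, 1021 and 953 CPM with CL097, the smallest log2 fold change of the complex at 0.70 ± 0.07 (adjusted p = 9.28e-05 by limma). The intervals of Cct6a (95% interval 1.25 to 1.52) and Cct2 (0.54 to 0.86) did not overlap; the difference between them was not tested. In libraries 1, 2 and 3 of each group, the CPM of Cct6a divided by that of Cct2 was 0.360, 0.348 and 0.322 unstimulated and 0.619, 0.494 and 0.553 with CL097. All 8 subunits were higher in library number 1 than in the mean of the other libraries of its group, in both groups, with a median difference of 0.17 (unstimulated) and 0.14 (CL097) on the log2 scale. Without the libraries numbered 1 the median log2 fold change of the complex was 0.95.

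**Figure D3:**
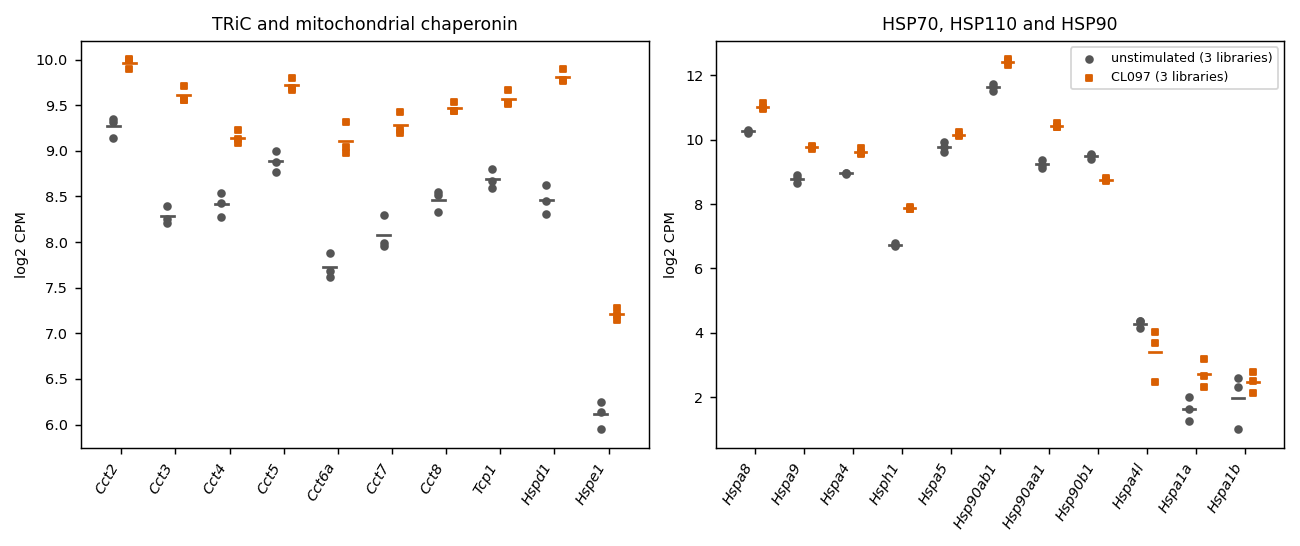
Each point is the log2 CPM of 1 library (grey circles, unstimulated; orange squares, CL097; n = 3 each), and short lines are group means. All TRiC and mitochondrial chaperonin genes are separate between groups, Hsp90b1 and Hspa4l are lower with CL097, and Hspa1b overlaps.

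J proteins select the substrates of HSP70, and their 3 classes were not tested against each other. In class A, the closest relatives of bacterial DnaJ, 3 of 4 were called higher, where 25.9% of all genes were. Dnaja2, a cytosolic partner of Hspa8, measured 254, 239 and 246 CPM unstimulated and 473, 458 and 474 CPM with CL097. The groups were separate (log2 fold change 0.93 ± 0.06, adjusted p = 8.82e-06 by limma). Dnaja3, the mitochondrial partner of Hspa9, measured 68.0, 60.3 and 63.7 CPM unstimulated and 114, 99.6 and 107 CPM with CL097, also separate (0.74 ± 0.07 on the log2 scale). Dnaja1, the heat-inducible cytosolic form, measured 109, 110 and 120 CPM unstimulated and 149, 132 and 134 CPM with CL097. It was higher in all CL097 libraries, but its log2 fold change of 0.29 ± 0.08 was under the fold threshold. Dnaja4 measured 1.79, 3.38 and 5.56 CPM unstimulated and 2.98, 4.46 and 9.38 CPM with CL097. Its groups overlapped, and its call (log2 fold change 0.63 ± 0.20, adjusted p = 0.0249 by limma) was lost without the replicate block (adjusted p = 0.325 by limma). Of its exon length, 44.0% overlaps Wdr61 on the opposite strand.

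In class B, 2 of 10 genes were called higher (20%, against 25.9% of all genes) and none lower (against 25.8%) by the limma fit. Their median log2 fold change was -0.01. Dnajb9, an ER J protein that binds BiP and restrains the stress sensor IRE1, measured 53.9, 52.9 and 65.2 CPM unstimulated and 132, 106 and 104 CPM with CL097. All CL097 libraries were higher (0.99 ± 0.12 on the log2 scale, adjusted p = 0.000262 by limma). Dnajb6 is a suppressor of protein aggregation, and its heat shock element is printed above. It measured 63.2, 63.9 and 74.3 CPM unstimulated and 110, 96.6 and 104 CPM with CL097, and was also called higher. Of its 75-base stretches, 33.3% are shared with other annotated genes, most with Gm2541. Dnajb1, the main heat-inducible J protein and picked here after its values were seen, measured 72.6, 66.1 and 73.3 CPM unstimulated and 59.7, 63.5 and 66.8 CPM with CL097. The groups overlapped and it was not called (log2 fold change -0.16, 95% interval -0.34 to 0.03). Dnajb2, Dnajb4, Dnajb5, Dnajb12, Dnajb13 and Dnajb14 were not called either. Of the genes not called, Dnajb11, an ER partner of BiP, was lower in every CL097 library (adjusted p = 0.00963 by limma), but its log2 fold change of -0.26 was under the fold threshold. It was the only class B gene lower at an unadjusted p under 0.05 by limma.

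Class C holds J proteins that share only the J domain. Of its 24 genes, 11 were called higher (45.8%, against 25.9% of all genes) and 7 lower (29.2%, close to the 25.8% of all genes). The median log2 fold change was 0.42, and 0.30 without the libraries numbered 3. The largest rises were in genes with quite different roles. Dnajc27, which encodes a Rab-like small GTPase with a J domain, measured 28.5, 26.2 and 24.6 CPM unstimulated and 78.6, 79.1 and 76.6 CPM with CL097. Its groups were far apart, 2.96-fold on average (log2 fold change 1.57 ± 0.08, adjusted p = 5.4e-06 by limma). Dnajc21, a factor of large ribosomal subunit maturation, measured 50.9, 49.97 and 53.8 CPM unstimulated and 142, 146 and 139 CPM with CL097. Its log2 fold change was 1.46 ± 0.07 (adjusted p = 4.01e-06 by limma), again without overlap. Dnajc11, a protein of the mitochondrial membrane complex that shapes cristae, measured 79.5, 74.8 and 72.2 CPM unstimulated and 207, 180 and 183 CPM with CL097, a log2 fold change of 1.33 ± 0.07. Dnajc15, an inner membrane J protein of mitochondria, measured 17.7, 15.4 and 15.2 CPM unstimulated and 41.6, 32.0 and 32.5 CPM with CL097, a log2 fold change of 1.13 ± 0.10. Neither showed overlap.

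Smaller rises in class C were of similar size to each other. Dnajc17, a splicing-associated J protein, went from 7.50 to 8.94 CPM unstimulated to 14.9 to 16.0 CPM with CL097 (log2 fold change 0.89 ± 0.13). Dnajc2, the ribosome-bound partner of Hspa14, measured 112, 112 and 114 CPM unstimulated and 214, 198 and 191 CPM with CL097. It was higher in each CL097 library (0.84 ± 0.07 on the log2 scale), while Hspa14 was not called. Dnajc25 went from 6.45 to 7.86 CPM to 11.1 to 14.8 CPM (log2 fold change 0.81 ± 0.15). Dnajc30, a mitochondrial J protein, went from 13.0 to 15.2 CPM to 22.9 to 25.7 CPM (log2 fold change 0.79 ± 0.11), and 26.2% of its exon length overlaps Bud23 on the opposite strand. Dnajc8, Dnajc19 and Dnajc24 were also called higher, Dnajc8 at the fold threshold itself with a log2 fold change of 0.50, and all 3 lost the call without the libraries numbered 3.

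The falls in class C included co-chaperones of both the cytosol and the ER. Dnajc7, whose TPR domains bind HSP70 and HSP90, measured 258, 285 and 296 CPM unstimulated and 156, 159 and 145 CPM with CL097. Every CL097 library was lower (log2 fold change -0.87 ± 0.07, adjusted p = 4.72e-05 by limma). Dnajc10, an ER disulphide reductase, measured 124, 121 and 131 CPM unstimulated and 76.3, 67.0 and 68.2 CPM with CL097, also without overlap (-0.83 ± 0.07 on the log2 scale, adjusted p = 6.26e-05 by limma). Dnajc12, a co-chaperone of aromatic amino acid hydroxylases, measured 10.8, 6.98 and 10.0 CPM unstimulated and 6.98, 3.89 and 4.83 CPM with CL097. The highest CL097 value was just under the lowest unstimulated one (log2 fold change -0.84 ± 0.17, adjusted p = 0.00325 by limma). Dnajc3, Dnajc9, Dnajc14 and Dnajc28 were called lower as well, Dnajc3 not without the libraries numbered 3. Dnajc28, chosen after its values were seen because it fell most of all members, measured 6.49, 4.71 and 3.01 CPM unstimulated and 1.21, 0.625 and 1.24 CPM with CL097, which is 4.62-fold lower on average.

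Small HSPs gave no call by the limma fit, and 0 at an unadjusted p under 0.05. Of the 8 genes, 3 were kept. This depended on single library numbers: Hspb6 was called higher without the libraries numbered 1 (log2 fold change 0.66, adjusted p = 0.0316 by limma) and Hspb1 without those numbered 2 (2.28, adjusted p = 0.0282 by limma), and the median of the 3 genes, 0.50, was 0.07 without those numbered 3. Hspb1, which encodes the small HSP of stressed cells, stayed at 0.11 to 0.519 CPM unstimulated and 0.319 to 0.698 CPM with CL097, and 47.3% of its 75-base stretches are shared with other annotated genes, most with Hsp25-ps1. Hspb6 measured 5.05 to 11.5 CPM unstimulated and 9.59 to 14.1 CPM with CL097. Hspb11, which functions in cilia, measured 5.00 to 7.14 and 6.19 to 6.29 CPM, respectively. All 3 overlapped between groups, and the widest 95% interval, for Hspb1, ran from -0.45 to 3.03 on the log2 scale. Among the 2 genes of no family that the symbols took in, Hspbp1, an exchange factor of HSP70, went from 27.9 to 35.5 CPM unstimulated to 45.0 to 53.4 CPM with CL097 and was called higher (log2 fold change 0.65 ± 0.08). Hspbap1 went from 11.5 to 13.4 CPM to 14.8 to 18.5 CPM and was not called (log2 fold change 0.44 ± 0.14).

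Grouped by compartment, mitochondrial members were mostly called higher and ER members were not; the compartments were not tested against each other. Of 10 mitochondrial members, 8 were called higher and 1, Dnajc28, lower, with a median log2 fold change of 0.88. Of 45 in the cytosol, nucleus or elsewhere, 24 were higher and 4 lower (median 0.63). Of 14 in the ER, 2 were higher, Dnajb9 and Dnajc25, and 4 lower, Dnajc3, Dnajc10, Dnajc14 and Hsp90b1, with a median of -0.21. For comparison, 25.9% of all genes were called higher and 25.8% lower. The 3 members with an ER stress element had log2 fold changes of 0.38 (Hspa5), -0.73 (Hsp90b1) and -0.56 (Dnajc3, which inhibits the ER stress kinase PERK). The 4 members with the 3-unit heat shock element had log2 fold changes of 1.35 (Hspd1), 1.10 (Hspe1), 1.12 (Hsph1) and 0.63 (Dnajb6). Hspd1 and Hspe1 share a single stretch. Among members with only a 2-unit form, Cct2, Cct5, Cct6a, Dnaja4, Dnajc27 and Hspa1a were called higher and Dnajc10 lower (-0.83). Dnaja1, Dnajb4, Hspa1b, Hspb1 and Hspb6, which also have only that form, were not called. A link between element and fold change was not tested.

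**Figure D4:**
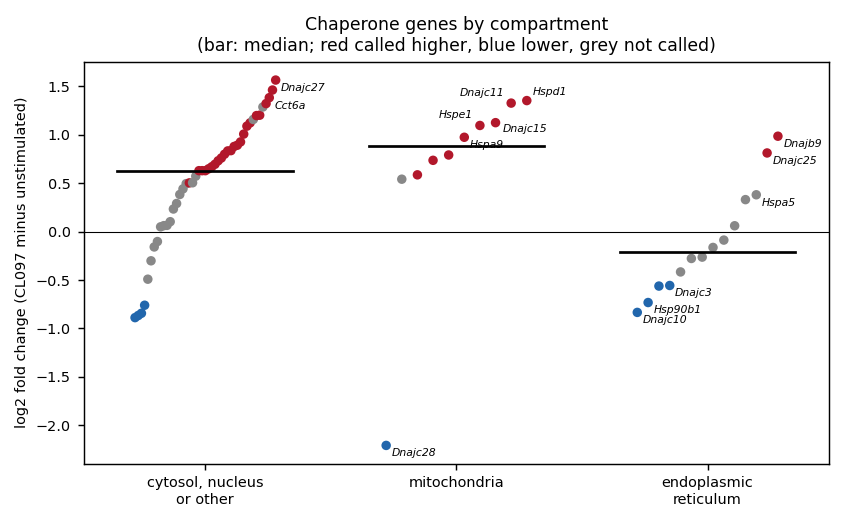
Points are log2 fold changes (CL097 minus unstimulated) of the 69 members by compartment, bars are medians and colours give the call. Mitochondrial genes have a median of 0.88 with Dnajc28 at -2.21, and ER genes a median of -0.21.

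A list of 12 heat-inducible members was mixed. Of the 11 kept, 6 were called higher (Hspa1a, Hspa8, Hsp90aa1, Hsph1, Hspd1 and Hspe1), which is 54.5% against 25.9% of all genes. Hspa4l was the 1 called lower (9.1%, against 25.8% of all genes), and 4 were not called (Hspa1b, Hspb1, Dnaja1 and Dnajb1). The median log2 fold change of the 11 was 1.09. The share called higher was larger among abundant members. Among the 27 members with a mean of at least 100 CPM, 20 were called higher (74.1%) and 3 lower (11.1%). Of the 2556 genes of that abundance, 27.1% were called higher and 25.9% lower. Among the 42 members under 100 CPM, 14 were called higher (33.3%) and 6 lower (14.3%). Of all genes under 100 CPM, 25.5% were called higher and 25.8% lower.

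Co-chaperones and regulators outside the families were described from a separate list of 74 genes, of which 70 were kept. Of these, 35 were called higher (50%) and 4 lower (5.7%), with a median log2 fold change of 0.45, beside 25.9% and 25.8% of all genes tested. Bag2, an exchange factor that inhibits the ubiquitin ligase CHIP, rose most, from 2.46, 1.88 and 2.83 CPM unstimulated to 10.96, 9.93 and 18.9 CPM with CL097 (log2 fold change 2.43 ± 0.19). Hsf2, a heat shock transcription factor, measured 12.4, 11.1 and 13.6 CPM unstimulated and 50.3, 34.5 and 44.4 CPM with CL097 (1.79 ± 0.12). Ppid, an HSP90-bound cyclophilin, measured 53.2, 51.7 and 58.7 CPM unstimulated and 195, 171 and 175 CPM with CL097 (1.73 ± 0.08). None of these overlapped between groups. Prefoldin, the complex that hands nascent actin and tubulin to TRiC, did not move as a unit. Pfdn2 measured 39.2, 32.2 and 31.3 CPM unstimulated and 122, 110 and 111 CPM with CL097 (log2 fold change 1.74 ± 0.08), whereas Pfdn5 measured 253, 206 and 198 CPM unstimulated and 154, 134 and 140 CPM with CL097 (-0.61 ± 0.07). Pfdn4 was called higher, and Pfdn1 and Vbp1 were not called. Pfdn6, a subunit also on the list, was absent from the gene symbols under that name. Pdcl, a TRiC cofactor for G protein beta subunits, measured 57.5, 54.5 and 62.6 CPM unstimulated and 37.3, 31.7 and 31.1 CPM with CL097, lower in every CL097 library (log2 fold change -0.80 ± 0.10). Unc45a, a myosin chaperone, measured 104, 115 and 98.5 CPM unstimulated and 69.8, 66.1 and 61.01 CPM with CL097, also without overlap (-0.69 ± 0.08). Sgtb was the other gene called lower. Its groups overlapped and its adjusted p by limma was 0.049, against 0.0929 without the replicate block. The HSP90 cofactors Stip1, Ahsa1, Cdc37, Ptges3 and Fkbp4, the mitochondrial exchange factor Grpel1 and the mitochondrial HSP90 Trap1 were called higher, as was Hsf1.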

How the data were processed

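Polyadenylated RNA from 6 cultures was sequenced as paired reads on an Illumina NextSeq. The authors trimmed reads (Trim Galore 0.6.5; quality by FastQC 0.11.7, per the submitters' processing notes), aligned them to mm10 with STAR 2.6.1a, counted them per gene with featureCounts (Subread 2.0.1) and deposited quantile-normalized log2 CPM from limma voom. The sources used here do not give the gene annotation, strand setting or treatment of reads with several matches. Library depth is unknown, since quantile normalization removes it: the deposited values sum to 991008 to 999204 CPM and 10906 to 10997 genes reach 1 CPM in each library. CPM are shares of a library, so total mRNA per cell is not measured.

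From these values, genes with at least 0.5 CPM in at least 3 of 6 libraries (11844 of 23420) were fitted with limma 3.58.1 in R 4.3.3 (group plus library number as a block, moderated with a variance trend, no pseudocount), and p-values were adjusted by Benjamini-Hochberg over all of them. SE and 95% intervals are limma's. Means, medians and shares were computed in Python 3.11.15 with pandas 2.3.3. The fit was tested on simulated data. The labels do not say what a library number marks, and pairing by number was part of the rule for the comparison. Over 11844 genes, deviations from the group means correlated at 0.57, 0.33 and 0.46 between libraries of the same number. Between libraries of unequal number the correlations were -0.48 to 0.21. Deviations within a group cancel out, which by itself lowers the correlations between unequal numbers when those between equal numbers are positive. As nothing states which samples came from separate mice, p-values may measure technical spread. The series title gives an age of 5 weeks, the treatment label 5 to 7 weeks.

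Values are given for each kept member outside J classes B and C, for the 12 called class B and C members with the largest change among those that average 5 CPM or more and have separate groups, and for up to 4 rises and 4 falls of that kind among co-chaperones, where 4 rises and 3 falls qualified. Members, families and lists were chosen with earlier results of these data known. Positions and shared sequence come from GENCODE M21 (GRCm38), in which all 82 members matched, and promoter sequences from RefSeq (GRCm38.p6). Alternatives were 13: another normalization (cyclic loess, median centring), log2(CPM + 1), other filters, no variance trend, robust moderation, no replicate block, other fold thresholds, and leaving out each library number.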

Additional observations from a re-analysis of the deposited data

How the results depend on the processing

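The counts of members called were 31 to 36 higher and 8 to 9 lower when each library number was left out in turn, and 33 higher and 8 lower with no replicate block, which lost Dnaja4 (adjusted p = 0.325) and Hspa4l (adjusted p = 0.0649 by limma) and, among co-chaperones, Sgtb (adjusted p = 0.0929 by limma; 3 lower). Without the libraries numbered 1, Hspa4l was lost and Dnajc4, Dnajc18 and Hspb6 were gained. Without those numbered 2, Dnaja4 was lost and Hspa12b and Hspb1 were gained. Without those numbered 3, Dnaja4, Dnajc3, Dnajc8, Dnajc19 and Dnajc24 were lost and Hspbap1 was gained. Cyclic loess lost Dnajc8 and gained Hspa12b. The median of HSP70 and HSP110 ran from 0.277 to 0.707, of J class C from 0.301 to 0.447 and of small HSPs from 0.072 to 0.822 over these omissions of a library number. Requiring a log2 fold change over 1 left 13 members higher and 1 lower, and 17 co-chaperones higher and 1 lower, fewer by construction. With no fold threshold, 11 co-chaperones were lower rather than 4. Without a filter on low values, 17935 genes were tested and 5 members were called lower, with Dnajc3, Dnajc9, Dnajc28 and Hspa4l lost; Dnaja4, Dnajc19 and Hspa1a were lost among the higher ones. The cause was not tested. The median of J class B, at -0.01, was 0.062 with the filter at a log2 CPM of 1 and ran from -0.151 to 0.024 when 1 library number was left out. Hspa14 ran from -0.111 to 0.162 and Hspb11 from -0.009 to 0.246 on the log2 scale under the same omissions; neither was called. Under the alternatives that keep the fold threshold of 0.5, Hspa4l lost its call in 5 and Dnaja4 in 5, while all 8 TRiC subunits, Hspd1, Hspe1 and the 3 HSP90 genes kept theirs. The replicate block changed no other call among members. Depth is unknown, and 3 libraries per group limit the precision, most for members near the low-value limit such as Hspb1.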

Other observations

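Dnajc6, the J protein auxilin, which uncoats clathrin vesicles, missed the low-value limit because only 2 libraries reached it. It measured 0.222, 0.167 and 0.173 CPM in unstimulated libraries 1, 2 and 3 and 0.0693, 2.18 and 3.11 CPM in CL097 libraries 1, 2 and 3, and was singled out after its values were seen. The libraries numbered 2 and 3 moved up with CL097 and the library numbered 1 did not, the same number in which the erythroid and monocyte marker sums were lowest. This difference was not tested.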
